A study of Mus musculus with 4 samples.

Results

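Genes listed as markers of tissue-resident macrophages were followed in macrophages sorted from tumours of mice on a high-fat diet (HFD) and of mice on a control diet (CD). The 10 genes were taken by name, with earlier results of these data known: Mrc1, Cd163, Stab1, Lyve1, Folr2, Timd4, Pf4, Selenop, Gas6 and F13a1. All 10 were found among the 53379 gene identifiers of the count table and all 10 were among the 18422 genes tested. The tumours came from MC38, a mouse colon carcinoma line grafted into C57BL/6J mice, and were taken 21 days after implantation. Cells were sorted by flow cytometry as positive for CD45, CD11b and F4/80, and each of the 4 RNA libraries came from 1 mouse, 2 mice on HFD and 2 on CD. The graft and the day of sampling are shared by both diets. The sources used here do not give the age or sex of the mice, the makeup or length of the diets or the site of the graft. Libraries held 34148682 to 37159552 counts.

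Tissue-resident macrophages are seeded largely before birth or replaced slowly from blood monocytes, and they clear dying cells, take up circulating debris and guard vessels. Many of them carry endocytic receptors such as the mannose receptor and stabilin, the hyaluronan receptor LYVE1 and the folate receptor FOLR2, and they release PF4, selenoprotein P and GAS6. The transcription factors PU.1 and MAF act in macrophages, and MAF is tied to genes of the resident state. In tumours, macrophages with such markers lie beside others that arose from recruited monocytes, and both kinds can carry the surface proteins of the sort used here.

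Of the 10 markers, 4 were called higher in HFD macrophages and 0 lower by edgeR's quasi-likelihood test, where a call is an adjusted p below 0.05 over all genes tested. The called genes were the mannose receptor gene Mrc1, the hyaluronan receptor gene Lyve1 and the genes of the secreted proteins PF4 and selenoprotein P. Over all genes tested, 2.61% were called higher and 7.91% lower. At an unadjusted p below 0.05 the markers counted 6 higher and 1 lower, DESeq2's Wald test called 5 higher and 1 lower (Timd4), and limma-voom called 4 higher and 0 lower. Over all genes DESeq2 called 1082 higher and 2004 lower, and limma-voom 370 higher and 1226 lower. The median log2 fold change of the 10 markers was 1.07, beside 0.0050 over all genes tested, and 8 of the 10 had a positive log2 fold change. Both HFD libraries lay above both CD libraries for 6 markers, an order that 32.2% of all genes tested had. Of those 6, Lyve1 (called) and Folr2 (not called) passed the filter on low counts through the HFD libraries alone. Both HFD libraries lay below both CD libraries for 1 marker, Timd4, an order that 31.6% of all genes tested had. For the other 3 (Cd163, Stab1 and F13a1) the diets overlapped. With 1 HFD mouse set against both CD mice, 1 of the 4 calls (Lyve1) stood without HFD mouse 1 and 0 stood without HFD mouse 2, the lone mouse being assumed to vary like the others. The median log2 fold change of the markers was 1.07 without HFD mouse 1 and 0.80 without HFD mouse 2. It was 1.03 without CD mouse 1 and 1.18 without CD mouse 2. In RNA of a whole sorted sample, fewer cells of a type and less RNA per cell cannot be told apart.

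**Figure D1:**
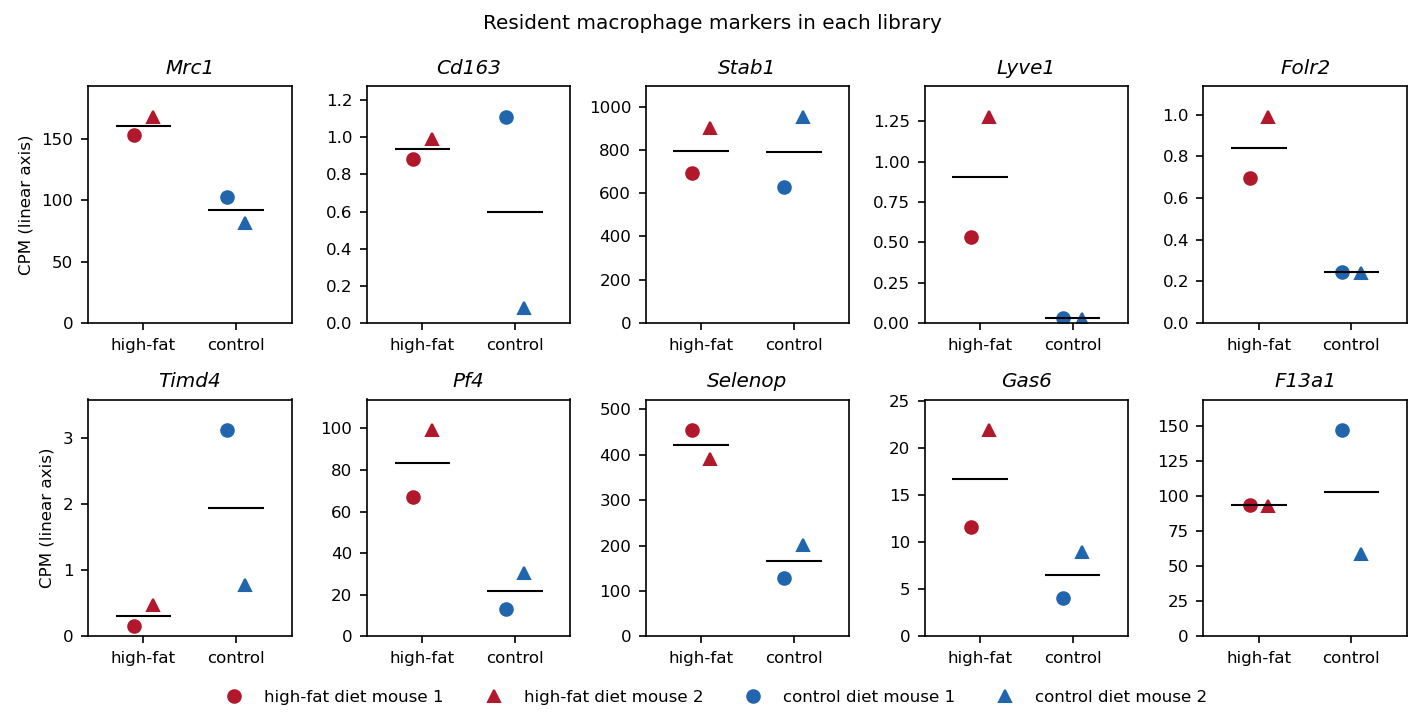
CPM (linear axis from 0, relative to the scaled library size) of each marker in each library, HFD mice at the left and CD mice at the right of each panel, with circles for mouse 1, triangles for mouse 2 and a line at the mean of each diet. Both HFD points lie above both CD points for Mrc1, Lyve1, Folr2, Pf4, Selenop and Gas6, and the CD mice lie far apart for Cd163, Timd4 and F13a1.

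The markers spanned a wide range of levels, and not all that define resident macrophages elsewhere were well detected. Levels of different genes are compared here as TPM, counts per kilobase of summed exon length scaled to the same total in every library. In HFD macrophages Selenop was highest with 375 and 311 TPM in mouse 1 and mouse 2, then Pf4 with 219 and 311 TPM, and Stab1 with 158 and 198 TPM. The lower library of Selenop and the higher of Pf4 were at the same rounded TPM, so these neighbours in the order were not apart beyond their spread. Mrc1 (56.4 and 59.8 TPM), F13a1 (32.7 and 31.3 TPM) and Gas6 (10.7 and 19.5 TPM) followed in HFD macrophages without overlap. In CD macrophages Stab1 was highest with 134 and 221 TPM, and its range overlapped that of Selenop with 99.9 and 169 TPM. Pf4 had 39.9 and 100.4 TPM in CD macrophages and overlapped both Selenop and F13a1 (48.0 and 20.8 TPM), and the range of Mrc1 (35.5 and 30.5 TPM) lay inside that of F13a1. Gas6 had 3.57 and 8.42 TPM in CD macrophages and stood apart from its neighbours.

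The other 4 markers were low in both diets. In HFD macrophages Folr2 had 1.05 and 1.45 TPM, Lyve1 0.429 and 0.992 TPM, Cd163 0.379 and 0.411 TPM and Timd4 0.173 and 0.489 TPM. Timd4 overlapped both Cd163 and Lyve1 there. In CD macrophages Timd4 had 3.16 and 0.855 TPM, Folr2 0.351 and 0.373 TPM, Cd163 0.448 and 0.0352 TPM and Lyve1 0.0233 and 0.0220 TPM. Folr2 lay inside the range of Cd163 there. In these libraries the panel was carried by Selenop, Stab1, Pf4, Mrc1 and F13a1, while Lyve1, Folr2, Timd4 and Cd163, the markers most often used to define resident cells, had at most 3.11 CPM in any library. Pan-macrophage genes were abundant in every library: the summed level of 11 such genes was 15817 and 16690 CPM in HFD macrophages and 13486 and 16443 CPM in CD macrophages. None of those 11 was called by edgeR in either direction; at an unadjusted p below 0.05, 1 was higher and 1 lower, and both DESeq2 and limma-voom called 0. With CD mouse 2 left out edgeR called 4 of them higher and 1 lower.

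**Figure D2:**
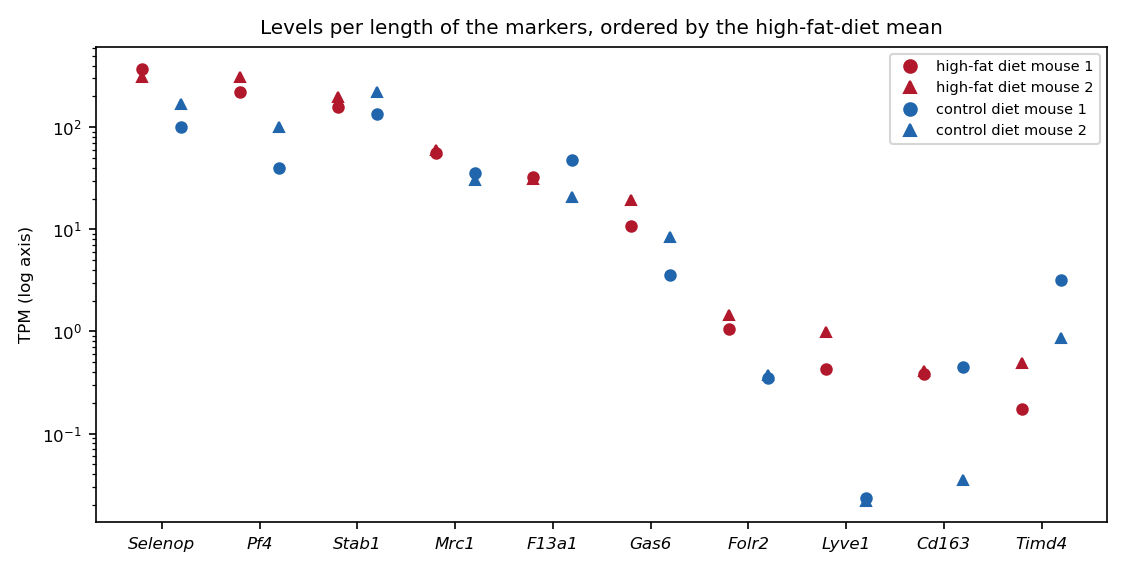
TPM of the 10 markers (log axis), ordered by their HFD mean from left to right, with HFD libraries left of CD libraries at each gene, circles for mouse 1 and triangles for mouse 2. Selenop, Pf4 and Stab1 lie above 100 TPM in both HFD libraries, and Folr2, Lyve1, Cd163 and Timd4 lie near or below 3.16 TPM in all 4 libraries.

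The first group of markers, scavenger and lectin receptors, takes up sugars, lipoproteins, haemoglobin or hyaluronan. Mrc1 encodes the mannose receptor CD206, an endocytic lectin for mannose-bearing glycoproteins. It had 153 and 168 CPM in HFD mouse 1 and mouse 2, against 103 and 81.5 CPM in CD mouse 1 and mouse 2. Both HFD libraries lay above both CD libraries, and the gap between diets was larger than that between the mice of a diet. The mean was 161 ± 10.6 CPM on HFD and 92.2 ± 15.1 CPM on CD (SD, n = 2 mice each). Mrc1 rose in HFD macrophages by 0.80 on the log2 scale (SE 0.17, 1.74-fold, edgeR adjusted p = 0.0395). Without HFD mouse 1 the adjusted p was 0.125 and without HFD mouse 2 it was 0.156, with log2 fold changes of 0.89 and 0.75, and without either CD mouse the call stood. The gene (ENSMUSG00000026712.3) lies on the plus strand of chr2:14229392-14332057 in GRCm38, with 30 exons in its longest transcript.

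Promoters are shown for the markers whose bases before the start hold GAGGAAG, letters that PU.1 sites often contain, or its reverse complement CTTCCTC. In the RefSeq table on GRCm38.p6, each promoter window runs from 250 bases before a transcript start to 50 after it. The bases of the Mrc1 window that lie before the gene's annotated start are chr2:14229164-14229391, plus strand, with the motif in capitals at 168 and at 36 bases before the RefSeq start.
Mrc1: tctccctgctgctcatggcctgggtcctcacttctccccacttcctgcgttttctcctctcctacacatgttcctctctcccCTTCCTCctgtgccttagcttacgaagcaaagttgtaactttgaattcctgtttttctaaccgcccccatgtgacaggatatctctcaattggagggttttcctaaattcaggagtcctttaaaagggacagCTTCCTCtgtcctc

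Stab1 encodes stabilin 1, a scavenger receptor for modified lipoproteins and for the matrix protein SPARC. It had 691 and 900 CPM in HFD mouse 1 and mouse 2, against 628 and 952 CPM in CD mouse 1 and mouse 2. The diets overlapped, since the CD mice held both the lowest and the highest value. The log2 fold change was 0.01 (SE 0.25, edgeR adjusted p = 0.981), and its sign turned under DESeq2's size factors and with 2 of the 4 libraries left out in turn. The gene (ENSMUSG00000042286.13, chr14:31139013-31168641, minus strand, 69 exons) overlaps Nt5dc2 on the other strand, which had 57.0 and 71.9 CPM in HFD libraries, against 63.9 and 53.1 CPM in CD libraries. The sources used here do not give the strand setting of the counting, so reads of overlapping genes cannot be told apart.

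Cd163 encodes the receptor that clears haemoglobin bound to haptoglobin. It had 33 and 38 counts (0.881 and 0.990 CPM) in HFD mouse 1 and mouse 2, against 36 and 3 counts (1.11 and 0.0807 CPM) in CD mouse 1 and mouse 2. CD mouse 2 stood below the other libraries, CD mouse 1 was the highest of the 4, and the diets overlapped. The log2 fold change was 0.68 (SE 0.93, edgeR adjusted p = 0.656). It was 3.49 with an adjusted p of 0.0212 without CD mouse 1, and -0.24 with an adjusted p of 0.705 without CD mouse 2. The value for Cd163 therefore turned on which CD mouse was kept. Cd163 (ENSMUSG00000008845.9) lies on the plus strand of chr6:124304656-124330527.

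Lyve1 encodes a hyaluronan receptor found on lymphatic endothelium and on macrophages along vessels. It had 20 and 49 counts (0.534 and 1.28 CPM) in HFD mouse 1 and mouse 2, against 1 and 1 count (0.0308 and 0.0269 CPM) in CD mouse 1 and mouse 2. In each HFD library it was above both CD libraries, and HFD mouse 2 held most of the Lyve1 counts. The summed counts, scaled for library size, gave a ratio of 31.7 with an exact conditional 95% interval of 8.45 to 267, which covers counting error only. In the edgeR fit Lyve1 rose in HFD macrophages with an adjusted p of 0.0268. The fitted log2 fold change of 4.82 (SE 0.83) depends on the small value added to counts near 0. With HFD mouse 2 left out it was 4.08 with an adjusted p of 0.159, and without any 1 of the other mice the call stood. Only the HFD libraries held 10 or more counts of Lyve1, so it passed the filter on low counts through 1 diet. The gene (ENSMUSG00000030787.4, chr7:110850607-110863239, minus strand) is named only, with no promoter shown.

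The folate receptor gene and the gene of the apoptotic cell receptor TIM-4 stood on opposite sides. Folr2 encodes folate receptor beta, which binds folate at the surface of macrophages. It had 26 and 38 counts (0.694 and 0.990 CPM) in HFD mouse 1 and mouse 2, against 8 and 9 counts (0.247 and 0.242 CPM) in CD mouse 1 and mouse 2. The HFD values were both above the CD values, and the CD mice were close to each other. The log2 fold change of Folr2 was 1.77 (SE 0.48), with an edgeR adjusted p of 0.0675 that missed the threshold. With no filter on low counts the adjusted p was 0.0443. Folr2 too had 10 or more counts only in the HFD libraries. It lies on the minus strand of chr7:101839988-101857194 (ENSMUSG00000032725.10) and overlaps the antisense gene Gm10602, which had 0.294 and 0.547 CPM on HFD, against 0.0617 and 0.376 CPM on CD.

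Timd4 encodes TIM-4, a receptor for phosphatidylserine on dying cells and a frequent mark of resident macrophages that are not replaced from blood. It had 6 and 18 counts (0.160 and 0.469 CPM) in HFD mouse 1 and mouse 2, against 101 and 29 counts (3.11 and 0.780 CPM) in CD mouse 1 and mouse 2. Both HFD libraries lay below both CD libraries, the reverse of the other 6 markers with no overlap, and CD mouse 1 stood far above the rest. The log2 fold change was -2.60 (SE 0.82), with an edgeR adjusted p of 0.0917 that missed the threshold. DESeq2's Wald test gave an adjusted p of 0.0177. Without CD mouse 1 the log2 fold change was -1.29 with an edgeR adjusted p of 0.26, and without CD mouse 2 it was -3.29 with an adjusted p of 0.00304. The gene (ENSMUSG00000055546.6) lies on the plus strand of chr11:46810800-46844332. Its promoter window was the only 1 among the markers with TGCTGAC or the reverse complement GTCAGCA, the letters of a MAF half-site. That stretch, chr11:46810744-46810770 on the plus strand, is shown with the motif in capitals at 45 bases before the RefSeq start.
Timd4: gtcccaccctGTCAGCAggaattgtga

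Secreted proteins made up the other 4 markers, and 2 of them rose. Pf4 encodes platelet factor 4 (CXCL4), a chemokine stored in platelets that several resident macrophage populations also express. It had 67.2 and 99.0 CPM in HFD mouse 1 and mouse 2, against 13.1 and 30.4 CPM in CD mouse 1 and mouse 2. No overlap was seen, with HFD above CD. The mean of Pf4 was 83.1 ± 22.5 CPM on HFD and 21.7 ± 12.2 CPM on CD (SD, n = 2 mice each). Pf4 rose by 1.93 on the log2 scale (SE 0.41, 3.82-fold, edgeR adjusted p = 0.0390). The adjusted p was 0.217 without HFD mouse 1 and 0.224 without HFD mouse 2, and 0.214 with no filter on low counts. With CD mouse 2 left out the log2 fold change was 2.67 and the adjusted p 0.00077. Pf4 is a short gene of 3 exons (ENSMUSG00000029373.7, chr5:90772435-90773383, plus strand). The bases before its start are chr5:90772185-90772434, plus strand, with the motif CTTCCTC in capitals at 9 bases before the start.
Pf4: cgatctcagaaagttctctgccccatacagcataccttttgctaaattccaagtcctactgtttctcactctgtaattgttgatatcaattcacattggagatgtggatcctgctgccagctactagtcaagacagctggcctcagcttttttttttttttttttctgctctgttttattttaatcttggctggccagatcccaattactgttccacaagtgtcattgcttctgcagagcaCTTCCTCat

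Selenop encodes selenoprotein P, which the liver releases to carry selenium to other organs and which macrophages also make. It had 454 and 390 CPM in HFD mouse 1 and mouse 2, against 129 and 201 CPM in CD mouse 1 and mouse 2. Both HFD libraries lay far above both CD libraries, and the lowest library held 4180 Selenop counts. The mean of Selenop was 422 ± 44.7 CPM on HFD and 165 ± 51.2 CPM on CD (SD, n = 2 mice each). Selenop rose by 1.35 on the log2 scale (SE 0.24, 2.56-fold, edgeR adjusted p = 0.0289). Without HFD mouse 1 the adjusted p was 0.0985 and without HFD mouse 2 it was 0.0600, with log2 fold changes of 1.26 and 1.48. The gene (ENSMUSG00000064373.12, chr15:3268547-3280508, plus strand) overlaps Ccdc152 on the other strand, which had 0.427 and 0.652 CPM on HFD, against 0.0308 and 0.296 CPM on CD. Its RefSeq starts lie inside the annotated gene, so a short stretch alone is shown: chr15:3270577-3270603, plus strand, with CTTCCTC in capitals at 180 bases before the first of those starts.
Selenop: tagtatagaaCTTCCTCttcataaagg

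Gas6 encodes a ligand that bridges phosphatidylserine on dying cells to the receptors Tyro3, Axl and Mertk. It had 11.6 and 21.9 CPM in HFD mouse 1 and mouse 2, against 4.13 and 9.01 CPM in CD mouse 1 and mouse 2. HFD mice were above CD mice in every pairing, but the mice of each diet were nearly as far apart as the diets. The log2 fold change of Gas6 was 1.35 (SE 0.45), with an edgeR adjusted p of 0.104 that missed the threshold. DESeq2's Wald test gave an adjusted p of 0.0183, and without CD mouse 2 edgeR gave a log2 fold change of 2.02 with an adjusted p of 0.0237. With HFD mouse 2 left out the log2 fold change was 0.84 with an adjusted p of 0.399. The gene (ENSMUSG00000031451.6) lies on the minus strand of chr8:13465374-13494490.

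F13a1 encodes the catalytic subunit of coagulation factor XIII, a transglutaminase that cross-links fibrin and is made by monocytes, platelets and resident macrophages. It had 93.9 and 93.0 CPM in HFD mouse 1 and mouse 2, against 147 and 58.8 CPM in CD mouse 1 and mouse 2. The HFD mice were nearly equal and lay between the CD mice, so the diets overlapped. The log2 fold change of F13a1 was -0.14 (SE 0.39, edgeR adjusted p = 0.840). It was 0.67 with an adjusted p of 0.0422 without CD mouse 1 and -0.65 with an adjusted p of 0.0240 without CD mouse 2, so the direction turned on which CD mouse was kept. The gene (ENSMUSG00000039109.16) lies on the minus strand of chr13:36867178-37050244. The bases before its start are chr13:37050245-37050494, minus strand, with GAGGAAG in capitals at 66 bases before the start.
F13a1: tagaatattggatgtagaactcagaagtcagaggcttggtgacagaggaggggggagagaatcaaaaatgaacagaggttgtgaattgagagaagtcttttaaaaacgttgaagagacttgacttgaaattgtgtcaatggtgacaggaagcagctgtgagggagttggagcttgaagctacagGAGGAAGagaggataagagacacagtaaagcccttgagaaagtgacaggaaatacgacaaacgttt

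**Figure D3:**
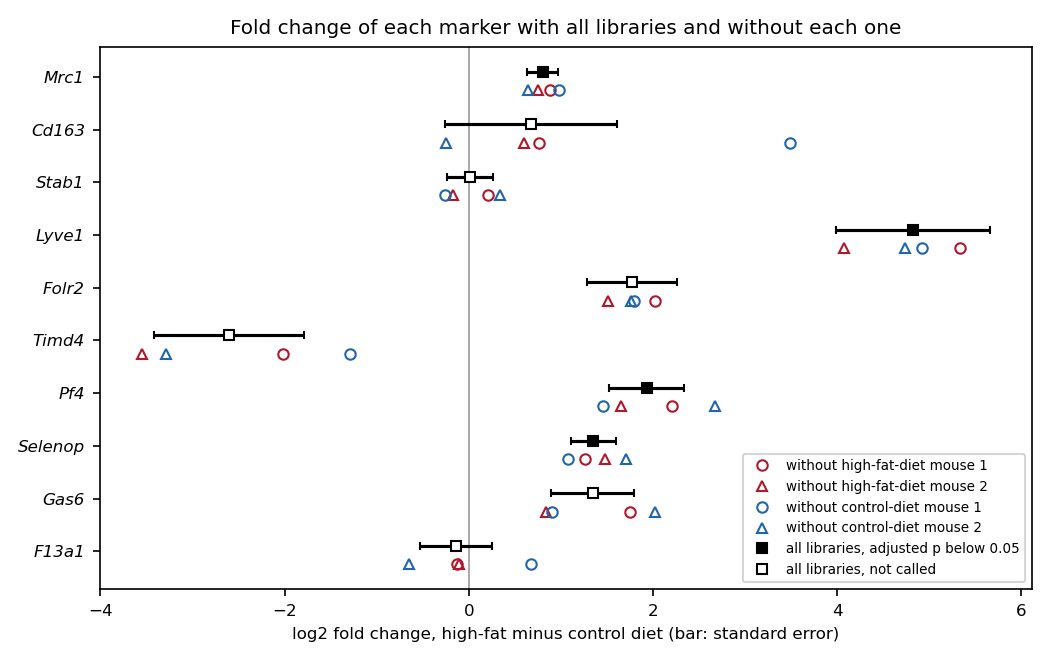
Log2 fold change of each marker, HFD minus CD, with all 4 libraries (squares with the standard error, filled where the edgeR adjusted p is below 0.05) and with each library left out in turn (open symbols, circles for mouse 1 and triangles for mouse 2). The 4 filled squares are Mrc1, Lyve1, Pf4 and Selenop, and the open symbols fall on both sides of 0 for Stab1, Cd163 and F13a1.

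The promoter letters were not shared by all markers. Of the 9 markers in the promoter table, 4 (Mrc1, Pf4, Selenop and F13a1) held GAGGAAG or CTTCCTC on either strand of the window, as did 15.4% of the 27025 genes in the table. Lyve1 was the marker not searched, since the table holds no window for it. The other 3 called genes (Mrc1, Pf4 and Selenop) held the letters, and so did F13a1, whose diets overlapped. The MAF half-site letters TGCTGAC or GTCAGCA were in the window of Timd4 alone and in 5.28% of all genes. The AP-1 letters TGAGTCA or TGACTCA were in a window of Folr2 alone and in 5.95% of all genes. A match describes the letters of a window and is not a measured site.

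Other genes of the same biology were taken from 15 lists with 184 distinct tested genes. Of those, 12 were called higher and 15 lower, where 2.61% of all genes tested were called higher and 7.91% lower. Those counts depended on single mice: 4 genes of the lists were called without HFD mouse 1, 5 without HFD mouse 2, 46 without CD mouse 1 and 91 without CD mouse 2. Of 19 tested genes in the list of other resident and perivascular macrophage genes, 4 were called higher and 0 lower, with a median log2 fold change of 0.60. At an unadjusted p below 0.05 that list had 8 higher and 3 lower, DESeq2 called 7 higher and 2 lower, and limma-voom called 3 higher and 0 lower. Without CD mouse 2 edgeR called 9 higher and 4 lower. The transcription factor gene Maf had 349 and 353 CPM in HFD macrophages, against 119 and 192 CPM in CD macrophages (log2 fold change 1.17, edgeR adjusted p = 0.0375). The chemokine gene Ccl8 had 10.1 and 16.2 CPM on HFD, against 3.48 and 4.14 CPM on CD (log2 fold change 1.79, edgeR adjusted p = 0.0235). Igf1, the gene of insulin-like growth factor 1, had 2.59 and 3.26 CPM on HFD, against 0.709 and 1.05 CPM on CD (log2 fold change 1.73, edgeR adjusted p = 0.0369). Spic, a transcription factor gene of red pulp macrophages, had 0.908 and 1.67 CPM on HFD, against 0.247 and 0.323 CPM on CD (log2 fold change 2.16, edgeR adjusted p = 0.0496). With HFD mouse 1 left out the adjusted p of these 4 genes lay between 0.0208 (Ccl8) and 0.133, without HFD mouse 2 between 0.0900 and 0.2996, and Spic was at 0.0682 without CD mouse 1, at 0.0501 with DESeq2 size factors and at 0.0691 with limma-voom. Among the 8 listed genes too low to test were Vsig4, Marco, Cd5l and Clec4f, markers of liver, spleen and peritoneal macrophages, and Clec4f had 0 counts in every library.

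Monocyte-derived and recruited cells are the other source of tumour macrophages. Of 16 tested genes of that list, 0 were called higher and 2 lower, with a median log2 fold change of -0.99. At an unadjusted p below 0.05 the list had 1 higher and 9 lower, DESeq2 called 0 higher and 6 lower, and limma-voom called 0 higher and 1 lower. With 1 mouse left out the calls turned, in number and in direction, on which mouse it was. Of the 16 genes, 13 had a negative log2 fold change and 3 a positive one, Ccr2 (0.20) and Vcan (0.72) among them. Thbs1, the gene of thrombospondin 1, had 254 and 319 CPM in HFD macrophages, against 2209 and 789 CPM in CD macrophages (log2 fold change -2.39, edgeR adjusted p = 0.0349). Ifitm6 had 1.47 and 1.62 CPM in HFD macrophages, against 33.3 and 6.21 CPM in CD macrophages (log2 fold change -3.67, edgeR adjusted p = 0.0395). In 13 of the 16 genes CD mouse 1 was the highest library. With CD mouse 1 left out the log2 fold changes were -1.45 for Thbs1 and -2.00 for Ifitm6, both still called, and without CD mouse 2 that of Ifitm6 was -4.43. Without HFD mouse 1 the adjusted p were 0.336 and 0.488, without HFD mouse 2 they were 0.213 and 0.354, and with no filter on low counts 0.229 and 0.29, each with Thbs1 first. With limma-voom the adjusted p of Ifitm6 was 0.106.

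GAS6 acts through receptors that are themselves genes of macrophages. Of 4 tested genes of the Tyro3, Axl and Mertk group with the ligand gene Pros1, edgeR called 0 in either direction, 1 was higher at an unadjusted p below 0.05, and DESeq2 and limma-voom called 0. With CD mouse 1 left out edgeR called 1 higher (Tyro3, adjusted p = 0.0186), and without CD mouse 2 it called 1 higher (Mertk, adjusted p = 0.00831). Mertk had 75.5 and 61.7 CPM in HFD macrophages, against 34.2 and 53.4 CPM in CD macrophages (log2 fold change 0.65, edgeR adjusted p = 0.130). Axl had 999.7 and 860 CPM in HFD macrophages, against 914 and 962 CPM in CD macrophages, and the diets overlapped. Of 13 tested receptors for phosphatidylserine and apoptotic cells, 0 were called higher and 2 lower, with a median log2 fold change of -0.28. At an unadjusted p below 0.05 that list had 1 higher and 4 lower, DESeq2 called 1 higher and 3 lower, and limma-voom called 0 higher and 2 lower. Without CD mouse 1 edgeR called 3 higher and 2 lower, and without CD mouse 2 it called 1 higher and 5 lower. The called receptors were Stab2, the relative of Stab1, and Lrp1, a large endocytic receptor. Stab2 had 6 and 5 counts (0.160 and 0.130 CPM) on HFD, against 51 and 89 counts (1.57 and 2.39 CPM) on CD. Its log2 fold change was -3.74 (edgeR adjusted p = 0.0143), and it passed the filter on low counts through the CD libraries alone. Lrp1 had 1243 and 1553 CPM on HFD, against 2641 and 3190 CPM on CD (log2 fold change -1.06, edgeR adjusted p = 0.0313). With HFD mouse 2 left out the adjusted p was 0.0597 for Stab2, and for Lrp1 it was 0.189 without HFD mouse 1 and 0.0834 without HFD mouse 2.

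The wider list of scavenger and endocytic receptors had calls in both directions. Of 17 tested, 1 was called higher and 3 lower, with a median log2 fold change of 0.11. The receptor called higher was Mrc2, the collagen-binding relative of Mrc1, with 23.2 and 21.1 CPM in HFD macrophages, against 11.6 and 8.58 CPM in CD macrophages (log2 fold change 1.13, edgeR adjusted p = 0.0300). Those called lower were Stab2, Lrp1 and the lipid receptor gene Cd36, with 16.7 and 15.4 CPM on HFD, against 30.1 and 61.3 CPM on CD (log2 fold change -1.51, edgeR adjusted p = 0.0414). Cd36 had a log2 fold change of -0.91 without CD mouse 2, and an adjusted p of 0.0589 with no filter on low counts and 0.0588 with limma-voom. Without HFD mouse 1 or HFD mouse 2 the adjusted p was 0.146 or 0.0884 for Mrc2 and 0.259 or 0.223 for Cd36. Of 9 hyaluronan genes, the family of the Lyve1 ligand, 1 was called higher and 2 lower. Has2, a hyaluronan synthase gene, had 20.5 and 12.3 CPM on HFD, against 6.47 and 5.91 CPM on CD (log2 fold change 1.41, edgeR adjusted p = 0.0359). Tnfaip6, whose product binds hyaluronan, had 1.02 and 1.12 CPM on HFD, against 8.63 and 3.01 CPM on CD (log2 fold change -2.44, edgeR adjusted p = 0.0413, and a log2 fold change of -1.49 without CD mouse 1). With HFD mouse 1 left out the adjusted p was 0.193 for Has2 and 0.237 for Tnfaip6, and without HFD mouse 2 it was 0.176 for Tnfaip6, which limma-voom put at 0.0799. Of 12 genes of haemoglobin, haem and iron handling, the biology of Cd163, Lrp1 alone was called by edgeR with all libraries. DESeq2 called 2 of those 12 higher and 3 lower. By edgeR 1 was called higher and 0 lower without either HFD mouse, 3 were called lower without CD mouse 1, and 2 lower without CD mouse 2 or with no filter on low counts.

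Selenoproteins and selenium transport genes were listed beside Selenop. Of 22 tested, 2 were called higher and 1 lower, with a median log2 fold change of 0.15. Selenof, the gene of a selenoprotein of the endoplasmic reticulum, had 204 and 165 CPM in HFD macrophages, against 101 and 117 CPM in CD macrophages (log2 fold change 0.76, edgeR adjusted p = 0.0452). Dio2, the gene of an enzyme that activates thyroid hormone, had 4.27 and 3.39 CPM on HFD, against 1.603 and 1.53 CPM on CD (log2 fold change 1.29, edgeR adjusted p = 0.0421). Txnrd1, the gene of thioredoxin reductase 1, had 114 and 131 CPM on HFD, against 270 and 196 CPM on CD (log2 fold change -0.93, edgeR adjusted p = 0.0406). Without HFD mouse 1 the adjusted p of these 3 genes lay between 0.217 and 0.293, without HFD mouse 2 between 0.0883 and 0.143, and Selenof was at 0.0686 without CD mouse 1.

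F13a1 belongs to a list of transglutaminases and coagulation factors. Of 13 tested, 1 was called higher and 3 lower, with a median log2 fold change of -1.50. DESeq2 called 2 higher and 6 lower, and limma-voom called 0 higher and 2 lower. By edgeR 0 were called without HFD mouse 1, 0 higher and 1 lower without HFD mouse 2, 1 higher and 6 lower without CD mouse 1, and 2 higher and 9 lower without CD mouse 2. Tgm2, the gene of tissue transglutaminase, had 435 and 580 CPM in HFD macrophages, against 2289 and 1052 CPM in CD macrophages (log2 fold change -1.72, edgeR adjusted p = 0.0421). Tgm1 had 3.63 and 6.25 CPM on HFD, against 19.8 and 11.6 CPM on CD (log2 fold change -1.66, edgeR adjusted p = 0.0425). Thbd, the gene of thrombomodulin, had 7.82 and 10.3 CPM on HFD, against 53.7 and 31.6 CPM on CD (log2 fold change -2.23, edgeR adjusted p = 0.0152). Tfpi, a coagulation inhibitor gene, had 22.5 and 15.8 CPM on HFD, against 9.37 and 10.3 CPM on CD (log2 fold change 0.96, edgeR adjusted p = 0.0488). Tgm2 had a log2 fold change of -1.05 without CD mouse 1, and an adjusted p of 0.109 with no filter on low counts. With HFD mouse 1 left out the adjusted p of these 4 genes lay between 0.0683 and 0.313, without HFD mouse 2 between 0.0440 (Thbd) and 0.166, and Tfpi was at 0.0633 without CD mouse 1 and at 0.0513 with DESeq2 size factors. With limma-voom Tfpi was at 0.0604 and Tgm1 at 0.0514. Among 9 genes of platelet chemokines and their receptors, 1 was called higher. That was Ppbp, a platelet chemokine gene 2.37 kb from Pf4, with 26 and 23 counts (0.694 and 0.599 CPM) on HFD, against 2 and 3 counts (0.0617 and 0.0807 CPM) on CD. Only the HFD libraries held 10 or more counts of Ppbp, so it too passed the filter on low counts through 1 diet. The edgeR adjusted p of Ppbp was 0.0318, and 0.253 without HFD mouse 1 or 0.170 without HFD mouse 2.

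Among 26 regulators of resident macrophages, 2 (Maf and Spic) were called higher and 4 lower, with 0 called without either HFD mouse and 4 higher and 9 lower without CD mouse 2. DESeq2 called 3 higher and 8 lower. Spic was called by neither DESeq2 size factors in edgeR nor limma-voom. Klf4 had 271 and 261 CPM in HFD macrophages, against 937 and 543 CPM in CD macrophages (log2 fold change -1.48, edgeR adjusted p = 0.0302). Mafk, a small MAF protein gene, had 36.96 and 43.8 CPM on HFD, against 154 and 94.4 CPM on CD (log2 fold change -1.62, edgeR adjusted p = 0.0223). Bcl6 had 72.9 and 80.6 CPM on HFD, against 142 and 139 CPM on CD (log2 fold change -0.87, edgeR adjusted p = 0.0235). The fourth was Irf4, also in the list of alternative activation, with 2.40 and 2.32 CPM on HFD, against 21.1 and 5.91 CPM on CD (log2 fold change -2.51, edgeR adjusted p = 0.0476, and -1.32 without CD mouse 1). Without HFD mouse 1 the adjusted p of these 4 genes lay between 0.108 and 0.371, and without HFD mouse 2 between 0.0713 and 0.283. The adjusted p of Irf4 was 0.23 with no filter on low counts and 0.099 with limma-voom.

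Alternative activation genes are induced by interleukin-4, and Mrc1 is often read with them. Of 16 tested, 0 were called higher and 2 lower (Tgm2 and Irf4), with a median log2 fold change of -2.09, and 15 of the 16 were highest in CD mouse 1. At an unadjusted p below 0.05 that list had 0 higher and 13 lower, DESeq2 called 0 higher and 7 lower, and limma-voom called 0 higher and 1 lower. With no filter on low counts edgeR called 0 in either direction. With 1 mouse left out the count of calls turned on which mouse it was. Of 15 genes induced by glucocorticoid or interleukin-10, 1 was called in each direction. Tsc22d3, a glucocorticoid-induced gene, had 195 and 158 CPM in HFD macrophages, against 85.1 and 107 CPM in CD macrophages (log2 fold change 0.88, edgeR adjusted p = 0.0400). Il1r2, the gene of the interleukin-1 decoy receptor, had 11.3 and 17.7 CPM on HFD, against 74.1 and 45.4 CPM on CD (log2 fold change -2.04, edgeR adjusted p = 0.0212). With HFD mouse 1 left out the adjusted p was 0.192 for Tsc22d3 and 0.0765 for Il1r2, and for Tsc22d3 it was 0.0719 without HFD mouse 2 and 0.0535 without CD mouse 1. Of 6 genes of the CSF1 receptor axis edgeR called 0, 2 were lower at an unadjusted p below 0.05, and DESeq2 called 1 lower. With CD mouse 1 left out edgeR called 2 of them higher, and without CD mouse 2 it called 2 lower. Csf1r had 1673 and 1633 CPM in HFD macrophages, against 2120 and 2007 CPM in CD macrophages (log2 fold change -0.32, edgeR adjusted p = 0.218).

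**Figure D4:**
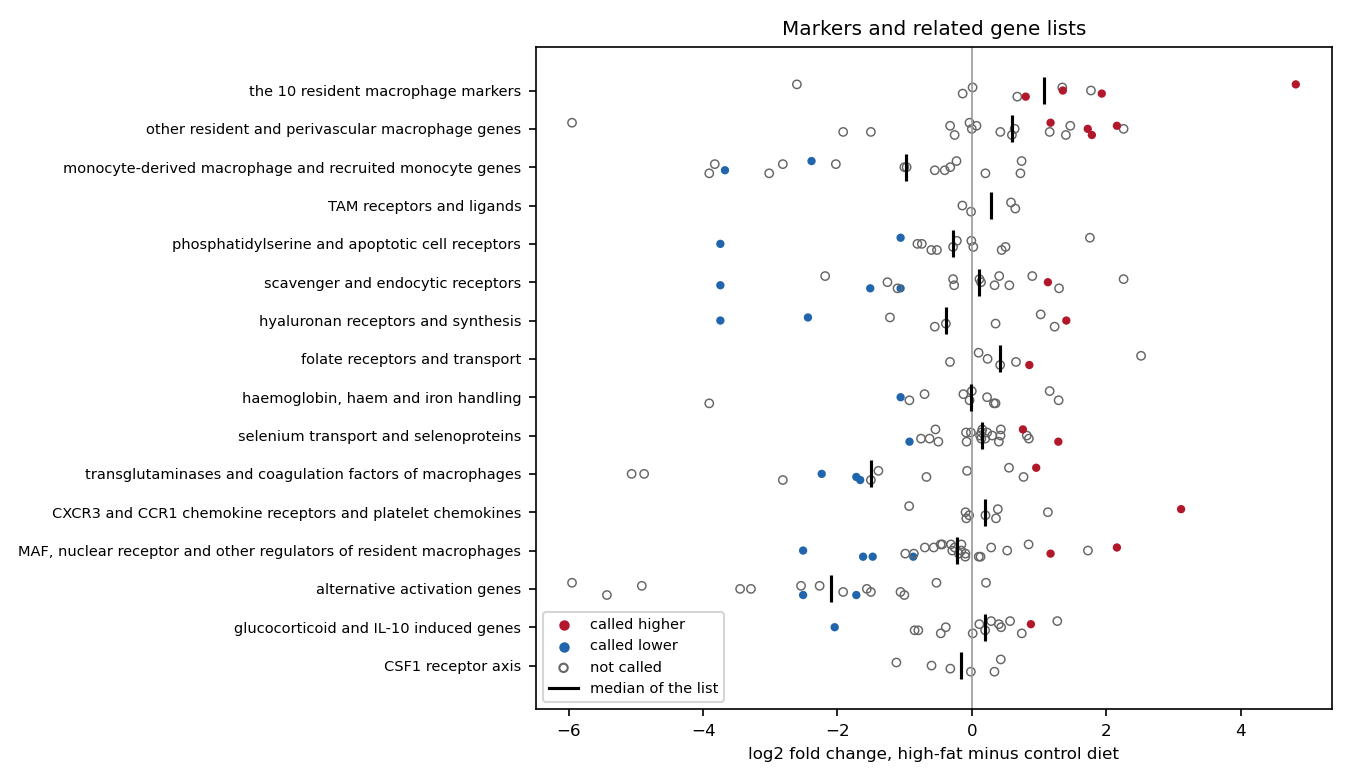
Log2 fold change, HFD minus CD, of every tested gene of the 10 markers (top) and of the 15 related lists, with filled points for genes called higher or lower by edgeR, open points for genes not called and a bar at each list's median. The bar of the markers stands at 1.07 and those of alternative activation and of transglutaminases at -2.09 and -1.50.

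Markers of other cell types also differed between the libraries, and several of those cells can express a marker of the panel. The summed level of 10 fibroblast and pericyte genes was 2064 and 2058 CPM in HFD macrophages, against 1040 and 779 CPM in CD macrophages. Of those 10, 6 were called higher and 0 lower by edgeR, 9 were higher and 0 lower at an unadjusted p below 0.05 or by DESeq2, none was at 0 counts in any library, and their median log2 fold change was 1.84. Most of that sum was the collagen gene Col3a1 with 1690 and 1540 CPM on HFD, against 890 and 674 CPM on CD, and Col1a1 had 97.8 and 213 CPM on HFD, against 29.2 and 17.6 CPM on CD. Fibroblasts are known to express Gas6 and Selenop. The sort included CD45, which fibroblasts lack, and how far it left them out was not tested. Whether any reads of Gas6 or Selenop came from such cells was not tested.

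Platelet and megakaryocyte genes ran the other way from Pf4 as a sum. Their summed level was 6.94 and 8.10 CPM in HFD macrophages, against 20.9 and 14.6 CPM in CD macrophages, while Pf4 was higher on HFD. Of 7 tested, 1 (Ppbp) was called higher and 2 lower (Gp9 and Itga2b), and 3 had a positive and 4 a negative log2 fold change. Whether any reads of Pf4 came from platelets was not tested. Gp6 had 1 count in HFD mouse 1 and 1 in CD mouse 2, and 0 in the other libraries, and Tubb1 had 2 to 11 counts in a library. The highest were Itgb3 with 2.27 and 3.54 CPM on HFD, against 7.52 and 2.26 CPM on CD, and Itga2b with 0.854 and 0.808 CPM on HFD, against 4.78 and 2.88 CPM on CD. Endothelial genes, which lymphatic vessels share with Lyve1 and Stab1, summed to 47.3 and 61.9 CPM in HFD macrophages, against 96.7 and 57.7 CPM in CD macrophages. Of 7 tested, 0 were called higher and 1 lower (Stab2), and at an unadjusted p below 0.05 the count was 2 higher and 2 lower, and DESeq2 and limma-voom called 0 higher. Without CD mouse 1 edgeR called 3 higher. The highest endothelial genes were Pecam1 with 26.5 and 40.3 CPM on HFD, against 78.2 and 43.1 CPM on CD, and Kdr with 6.89 and 6.98 CPM on HFD, against 5.61 and 3.23 CPM on CD. Prox1, which defines lymphatic endothelium, had 4 and 1 counts on HFD, against 9 and 39 counts on CD. Of the 7 tested endothelial genes, 5 had a positive log2 fold change and 2 a negative one, with a median of 0.12. Whether any reads of Lyve1 or Stab1 came from endothelial cells was not tested.

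Cd163, Timd4 and F13a1 were highest in CD mouse 1, and so were several markers of other blood cells. Those 3 of the 10 markers made up a share near that of all genes tested, of which 30.1% were highest in that library. The summed level of 6 monocyte genes was 985 and 577 CPM on HFD, against 1397 and 574 CPM on CD, with 0 called by edgeR, 1 higher and 3 lower at an unadjusted p below 0.05, and 2 called lower by DESeq2, and by edgeR without either CD mouse. The highest of them were Ccr2 with 534 and 339 CPM on HFD, against 455 and 305 CPM on CD, and Vcan with 288 and 170 CPM on HFD, against 158 and 120 CPM on CD. Neutrophil genes summed to 193 and 171 CPM on HFD, against 392 and 191 CPM on CD, with 4 of 7 called lower, and their highest genes Mmp9 and Csf3r were not called. Dendritic cell genes summed to 18.8 and 24.9 CPM on HFD, against 85.6 and 53.1 CPM on CD, with 2 of 6 called lower, Xcr1 and Ccr7 being the highest. Mast cell genes summed to 4.65 and 4.795 CPM on HFD, against 30.6 and 10.001 CPM on CD, with 1 of 4 called lower, Kit and Tpsb2 being the highest. Lymphocyte genes summed to 18.5 and 17.2 CPM on HFD, against 38.2 and 12.7 CPM on CD, with 1 of 8 called in each direction, Nkg7 and Cd8a being the highest. Genes of tumour epithelium summed to 39.4 and 45.9 CPM on HFD, against 154 and 105 CPM on CD, with 4 of 5 called lower, Cdh1 and Krt8 being the highest. Counts of calls in these lists depended on the setting. For neutrophil genes 1 was called lower without either HFD mouse, and 2 with limma-voom or with no filter on low counts, and without CD mouse 2 the count was 6. For epithelial genes 0 were called lower without either HFD mouse or with limma-voom, and 1 with no filter. For dendritic cell genes 1 was called lower without either HFD mouse, with limma-voom or with no filter, and 5 without CD mouse 2. Mast cell genes had 0 called lower without HFD mouse 2 and 3 without CD mouse 2, and lymphocyte genes had 3 called lower without CD mouse 2. The sort for CD45, CD11b and F4/80 selects against epithelial cells and most lymphocytes, mast cells and neutrophils. How far it left them out was not tested. Whether any such cells bore on the values of Cd163, Timd4 and F13a1 was not tested.

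**Figure D5:**
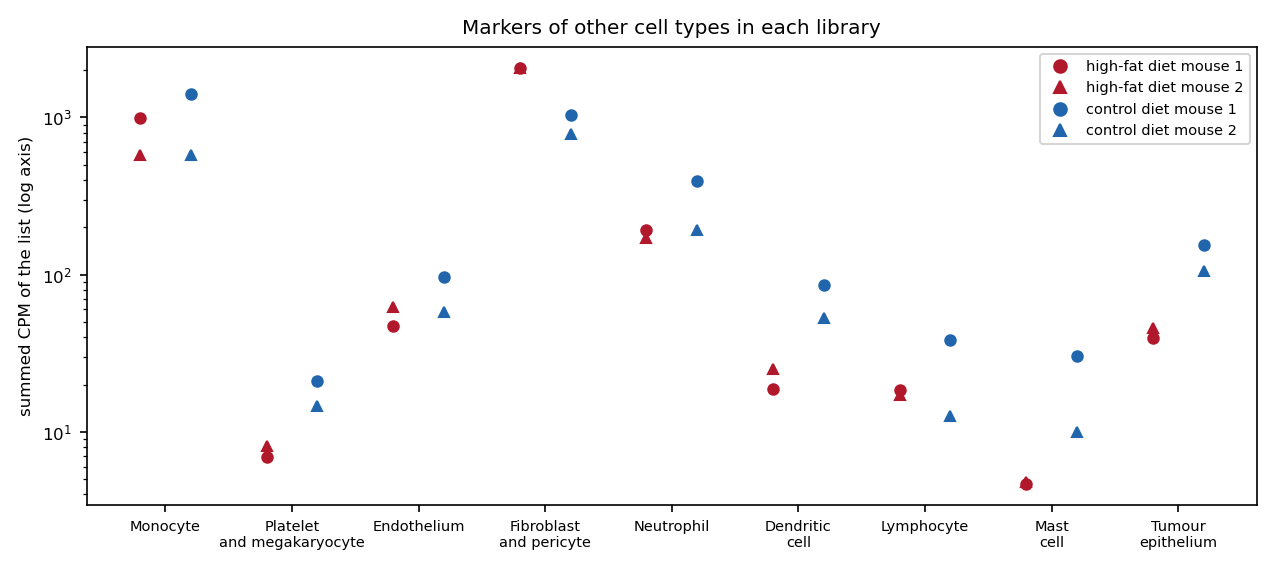
Summed CPM of the marker genes of 9 other cell types in each library (log axis), HFD libraries left of CD libraries at each list, circles for mouse 1 and triangles for mouse 2. Fibroblast and pericyte genes reach 2064 and 2058 CPM in the HFD libraries against 1040 and 779 CPM in the CD libraries, and the dendritic cell, mast cell and epithelial sums are lower in both HFD libraries.

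The profile of the panel, its mean log2 CPM centred per gene, was compared over the 4 libraries with 9200 other genes. Those genes had a mean log2 CPM of at least 3. The most alike were Dctn6, Wdr6, Selenow, Gltp and Cpt2, each with a Pearson r of 0.998 or more. Pearson r does not take in the size of a change. Their log2 fold changes ran from 0.12 (Selenow) to 0.39 (Cpt2), beside the median of 1.07 for the markers. Their edgeR adjusted p ran from 0.167 (Cpt2) to 0.575 (Selenow), so they were not called. With 4 libraries such values are common: 652 genes had r above 0.9. Selenow, a selenoprotein gene, had 116 and 121 CPM in HFD macrophages, against 109 and 108 CPM in CD macrophages.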

How the data were processed

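Counts of reads per gene, whole numbers that the authors deposited without normalisation, were used for 4 libraries of sorted tumour macrophages, 2 mice on HFD and 2 on CD, each named as a separate mouse. A stranded kit for mRNA was used on polyA RNA, per the labels' protocols. The submitters' processing notes name the builds GRCm38 and mm10 and the tools BWA 0.7.12, cutadapt 1.15, DESeq2 1.24.0 and FastQC 0.11.5, without saying what each did. The sources used here do not give the counting program or its strand setting. A gene's reads may have been split with similar copies.

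Symbols were matched for 53274 identifiers, and positions came from GENCODE mouse release M21. Genes were filtered with filterByExpr (minimum count 10, total 15), scaled by TMM and tested with edgeR 4.0.16 in R 4.3.3 (glmQLFit, glmQLFTest, diet as the only term), with Benjamini-Hochberg adjustment over all 18422 genes tested and a call at an adjusted p below 0.05. The SE is the log2 fold change divided by the square root of F. CPM are relative to the TMM-scaled library size. The exact permutation test of 2 mice against 2 cannot give a two-sided p below 0.333, so no such test was run. Alternatives were DESeq2 size factors, no filter, DESeq2 1.42.0, limma-voom 3.58.1, a replicate block and leaving out each library. The fit was tested on simulated counts.

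The markers and lists were chosen with earlier results of these data known. Every marker is named; from each related list up to 4 called genes, or otherwise up to 3 of smallest p, were eligible to be named, and from each list of other cell types the 2 genes of highest level. Axl, the overlapping genes, the genes of low counts in the resident list, Prox1, Gp6, Gp9, Tubb1 and Selenow's values were added after their values were seen. The mice of a diet differed beyond counting error. Same-numbered mice of the 2 diets did not deviate together (correlation over genes -0.19), which cannot exclude a pairing, and the labels give none. Without molecular identifiers, counting intervals cover counting error only. Promoter windows came from RefSeq on GRCm38.p6, with 9 of the 10 markers matched. Some genes of the lists are not reported here.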

Additional observations from a re-analysis of the deposited data

How the results depend on the processing

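The 4 marker calls stood with DESeq2 size factors, and limma-voom also called 4. With no filter on low counts 4 were called, Folr2 in and Pf4 out, while all genes called rose in number to 1552 higher and 2231 lower (480 and 1457 with the filter) and the related genes called to 43 (27 with it). DESeq2's Wald test called 1 marker lower, 1082 genes higher and 64 related genes. The median log2 fold change of the markers was 1.38 with limma-voom. With the replicate block it was 1.27, 5 markers were called higher, Gas6 being added, and 567 genes were called higher and 1481 lower. The labels give no pairing of same-numbered mice, and the cause of these changes was not tested. With 1 library left out in turn, 0 to 6 markers were called higher and 0 to 2 lower, their median was 0.80 to 1.18, all genes called were 71 to 1934 higher and 300 to 2534 lower, and related genes called were 4 to 91. Directions turned for 3 markers that were not called: the log2 fold change of Stab1 was -0.0019 with DESeq2 size factors and with DESeq2's Wald test and -0.25 to 0.34 with 1 library left out, that of F13a1 was 0.0077 with limma-voom, 0.0072 with the replicate block and -0.65 to 0.67 with 1 library left out, and that of Cd163 was -0.24 to 3.49 with 1 library left out. The cause was not tested. Lengths of the longest transcript moved 4 of 20 mean TPM beyond 1 SD, and motif shares over the bases before the start alone were 12.004% for PU.1, 4.31% for the MAF half-site and 5.16% for AP-1. Depth limits Lyve1, Folr2, Timd4 and Cd163, which had at most 101 counts in a library.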

Other observations

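Genes named here were chosen after their values were seen. Cd4, which T cells and some resident macrophages express, had 3.39 and 4.12 CPM in HFD libraries, against 0.493 and 0.484 CPM in CD libraries (log2 fold change 2.93, edgeR adjusted p = 0.0113). The T cell genes Cd3d and Cd3e did not pass the test: Cd3d had 1.66 and 1.33 CPM on HFD, against 2.28 and 0.860 CPM on CD, and Cd3e had 1.71 and 1.67 CPM on HFD, against 2.00 and 0.511 CPM on CD. Cbr2 and Fcna, further genes of the resident list, missed the threshold: Cbr2 had 3.36 and 5.37 CPM on HFD, against 1.85 and 1.32 CPM on CD (log2 fold change 1.47, edgeR adjusted p = 0.0519), and Fcna had 1.42 and 2.03 CPM on HFD, against 0.771 and 0.538 CPM on CD (log2 fold change 1.40, edgeR adjusted p = 0.0776).

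In some other genes of the resident list 1 library stood apart, CD mouse 1 for Ccl24 and Mgl2 and HFD mouse 2 for Hmox1. Ccl24, a chemokine gene, had 0.320 and 0.547 CPM on HFD, against 53.9 and 0.349 CPM on CD (edgeR adjusted p = 0.104). The lectin gene Mgl2 had 13.1 and 18.8 CPM on HFD, against 100.3 and 20.2 CPM on CD (edgeR adjusted p = 0.120). The haem oxygenase gene Hmox1 had 190.4 and 518 CPM on HFD, against 133 and 185 CPM on CD (edgeR adjusted p = 0.146). Among neighbours of the markers, Ghr, the growth hormone receptor gene 37.25 kb from Selenop on the other strand, had 30.2 and 16.4 CPM on HFD, against 9.37 and 5.75 CPM on CD (log2 fold change 1.62, edgeR adjusted p = 0.0444).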
